A study of Rattus norvegicus with 2 samples.

Results

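Autotaxin, the phosphatases that break down lysophosphatidic acid (LPA) and the LPA receptors were followed in primary cardiomyocytes from neonatal SD rats. The 9 genes were Enpp2 for production, Plpp1, Plpp2 and Plpp3 for breakdown, and Lpar1, Lpar2, Lpar3, Lpar4 and Lpar6 for reception. They were taken by their platform symbol from 22093 genes measured, and each had 1 row (transcript cluster). One group of cells received lipopolysaccharide (LPS), the outer membrane component of Gram-negative bacteria, at 100 ng/mL for 24 h, and the control group received vehicle for 24 h. Each group was hybridised to 1 array, so there is no spread between samples, no test was made, and every difference describes these 2 arrays. The series title sets the comparison in septic cardiomyopathy and phospholipid metabolism.

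LPA is a small signalling phospholipid. Autotaxin, a secreted lysophospholipase D, forms it outside the cell by removing choline from lysophosphatidylcholine. Lipid phosphate phosphatases on the cell surface remove its phosphate and end the signal, and G protein-coupled receptors carry it into the cell through Gi, Gq, G12/13 and, for some receptors, Gs.

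Upstream sequences are shown for Plpp3 and Lpar4, the members that were at least 2-fold higher with LPS and have an entry in the RefSeq promoter table. Enpp2, Plpp2, Lpar1 and Lpar2 have none, and 5 of the 9 members matched. The 250 bases before the gene start are given 5′ to 3′ on the plus strand of build GRCr8, for Plpp3 at chr5:125155750-125155999 and for Lpar4 at chrX:76106069-76106318. Capitals mark matches to a short NF-κB half-site, GGGAA, on either strand.
Plpp3: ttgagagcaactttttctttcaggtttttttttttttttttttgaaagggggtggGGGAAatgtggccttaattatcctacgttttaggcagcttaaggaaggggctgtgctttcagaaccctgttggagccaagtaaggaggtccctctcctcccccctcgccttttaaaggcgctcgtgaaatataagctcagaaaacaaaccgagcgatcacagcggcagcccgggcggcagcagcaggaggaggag
Lpar4: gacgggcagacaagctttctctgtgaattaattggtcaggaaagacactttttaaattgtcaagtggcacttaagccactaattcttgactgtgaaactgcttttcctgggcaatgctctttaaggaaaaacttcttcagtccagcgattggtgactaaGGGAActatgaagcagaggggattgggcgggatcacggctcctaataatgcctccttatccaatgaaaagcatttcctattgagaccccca

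In these windows no match to the full NF-κB consensus was found for any of the 5 matched members, against 4.24% of all 33469 promoters in the table. The half-site was matched in Plpp1, Plpp3, Lpar4 and Lpar6, and in 56.1% of all promoters, so its presence is common. The AP-1 site TGANTCA (6.34% of promoters), the interferon-stimulated response element TTTCNNTTTC (3.41%) and the gamma-activated site TTCNNNGAA (7.67%) were matched in none of the 5. The hypoxia response element core ACGTG, held by 16.6% of promoters, was matched in Lpar3 alone, as a palindrome read once on each strand with overlapping letters. Both strands were searched, and a match is a description of letters, not of binding. The gene start is the one in the promoter table, and whether each window lies wholly upstream of transcribed sequence was not checked. The Lpar3 window ends in letters that can be read as the start of a coding sequence, so its match may not lie upstream of the gene.

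The deposited values are intensities from robust multi-array averaging (RMA) on a linear scale with no known unit. Across the array 14420 genes had at least 1 value at or above the floor, 49.3, which is the median transcript cluster. Of these, 532 were at least 2-fold higher with LPS and 379 at least 2-fold lower, and 6624 had exactly the same value on both arrays. Exact equality also occurred at high intensities, such as 8290 for Ryr2, and why so many values coincide is unexplained in the sources used here. An identical value or a list median of 0 is therefore not a measurement of no change. Levels of different genes come from different probes and are not compared with each other, except that marker intensities are summed below. Such sums mostly follow the genes of highest intensity and do not measure how much of a cell type is present.

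Of the 9 genes, 8 reached the floor and Lpar2 did not. Among the 8, 3 were at least 2-fold higher with LPS, one from each arm of the pathway: Enpp2, Plpp3 and Lpar4. The share of all genes above the floor that were higher by this size was 3.69%. None of the 8 was at least 2-fold lower, against 2.63% of all genes. Values were identical on both arrays for 2 of the 8, Plpp2 and Lpar1, against 45.9% of all genes. The genes were gathered with earlier results of these arrays known, so the counts are a description.

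**Figure D1:**
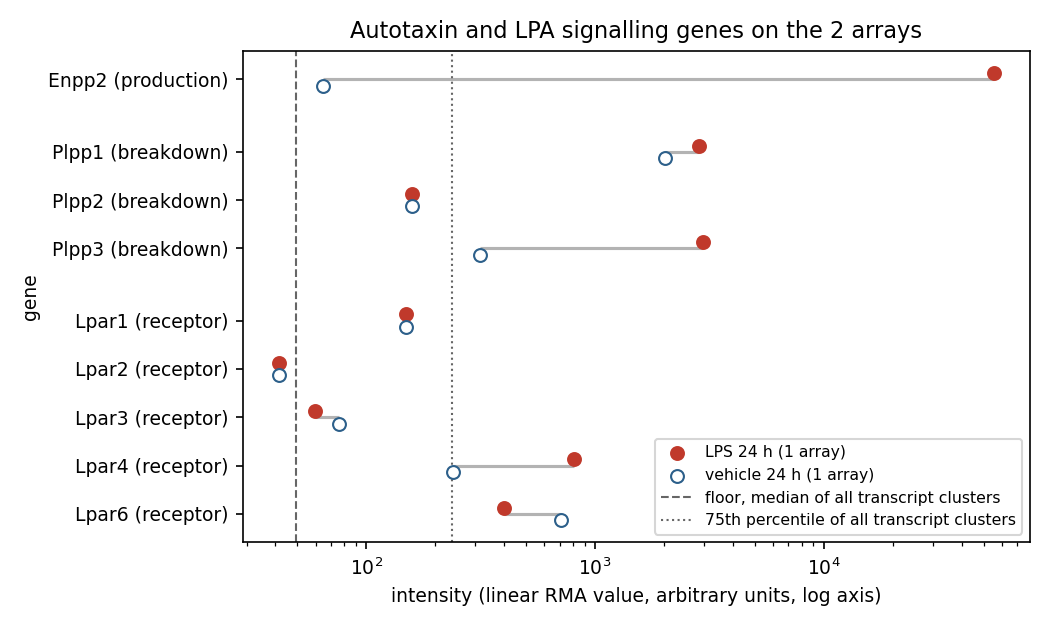
Intensity of each of the 9 genes on the LPS array (filled points) and the vehicle array (open points), on a log axis, with lines at the floor of 49.3 and at the 75th percentile of all transcript clusters, 236. Enpp2, Plpp3 and Lpar4 lie to the right with LPS, Lpar6 and Lpar3 lie to the left, and Plpp2, Lpar1 and Lpar2 coincide.

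Enpp2 (Entrez 84050) had an intensity of 55386 with LPS and 64.6 with vehicle. The LPS value lay far above the floor and the vehicle value close to it. The difference was 9.74 on the log2 scale, or 857-fold higher with LPS, and 2 of the 14420 genes, Il1b and Pla2g2a, differed by more. The vehicle value was 1.31 times the floor, where an intensity may hold little signal over background, although background was not measured. The size of this fold rests on that low value. When values under 236 were raised to 236, Enpp2 remained 235-fold higher, at 7.87 on the log2 scale. On that scale 0 of the 14420 genes differed by more, so its place among the largest differences depends on how low values are treated.

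The genes next to Enpp2 in log2 difference over the 2 arrays were Il1b, Pla2g2a, Il1a and Cxcl6. Il1b and Il1a encode interleukin-1 cytokines, Pla2g2a a secreted phospholipase A2 and Cxcl6 a chemokine. Each of the 4 had a low vehicle value, between 32.5 for Cxcl6 and 68.2 for Il1a, and those of Cxcl6 and Pla2g2a were under the floor. Exact distances from Enpp2 are therefore not meaningful. With low values raised, the log2 differences were 7.78 for Il1b, 7.60 for Il1a, 7.54 for Pla2g2a and 6.20 for Cxcl6, all below that of Enpp2.

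On the breakdown side, the 3 phosphatases differed by unequal amounts. Plpp3 (Entrez 192270), a surface lipid phosphate phosphatase known in mice to be needed for vascular development, had 2964 with LPS and 315 with vehicle. It was 9.40-fold higher, or 3.23 on the log2 scale, and 107 genes differed by more in either direction. Both values lay above 236, so the fold was not altered by raising low values.

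Another transcript cluster, named Ppap2b on the platform, carries an older symbol of Plpp3 and no Entrez ID. Its intensities were 82.0 with LPS and 62.3 with vehicle, 1.32-fold higher. Both are below the 75th percentile of clusters, and with low values raised no difference remained, so this cluster neither matched the size nor gave a usable direction. Averaging the 2 clusters gave 1.82 on the log2 scale, or 3.52-fold.

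Plpp1 (Entrez 64369), a widely expressed phosphatase of the same family, had 2853 with LPS and 2031 with vehicle. It was 1.41-fold higher, or 0.49 on the log2 scale, which is under the 2-fold size, and 1999 genes differed by more. Plpp2 (Entrez 246115), the remaining phosphatase of the family, had 159 on both arrays. The median log2 difference of the 3 was 0.49, while that of all genes above the floor was 0. The genes nearest above Plpp3 in log2 difference were Cd302 (3.30), a C-type lectin receptor, and Gda (3.25), guanine deaminase. Nearest below it were the chemokine Cxcl11 and Ifgga2l1, both at 3.23. With low values raised, Cxcl11 was 4.90-fold higher, while Cd302, Gda and Ifgga2l1 were unaltered.

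**Figure D2:**
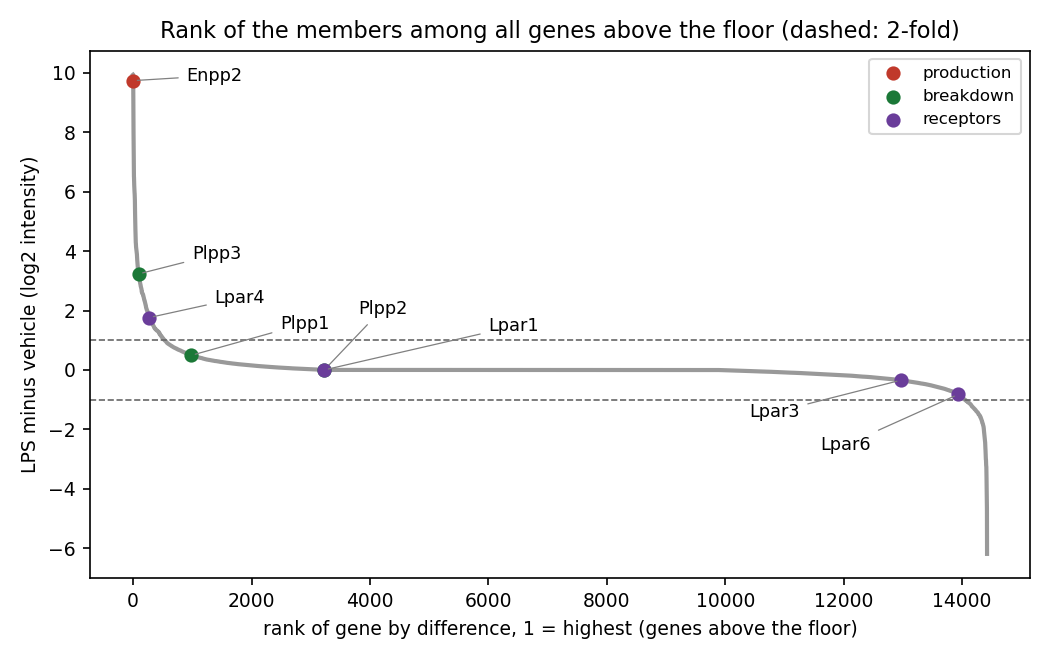
LPS minus vehicle (log2 intensity) of the 14420 genes above the floor in order of difference (grey line), with the 8 genes above the floor marked by role and dashed lines at 2-fold. Enpp2 stands in place 3 from the top before low values are raised, Plpp3 in place 94 and Lpar4 in place 276, while Plpp2 and Lpar1 share the flat stretch of identical values.

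The receptors showed no common direction. Lpar1, Lpar2 and Lpar3 belong to the EDG family, which also holds the sphingosine 1-phosphate receptors, while Lpar4 and Lpar6 belong to a separate family related to the P2Y nucleotide receptors. Among the 4 receptors above the floor, 1 was at least 2-fold higher, against 3.69% of all genes. Another 2 were lower by less than 2-fold, so 0 were 2-fold lower, against 2.63%. The remaining 1 was identical, against 45.9%. The median log2 difference of these 4 receptors was -0.17, beside 0 for all genes above the floor.

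Lpar4 (Entrez 302378), a receptor able to couple to Gs, G12/13, Gq and Gi, had 810 with LPS and 238 with vehicle. It was 3.40-fold higher, or 1.76 on the log2 scale, and 357 genes differed by more. The vehicle value was just above 236, so raising low values left the fold as it was. Next to it in log2 difference stood Slc11a2 (1.80), an iron transporter, and Glp1r (1.79), the glucagon-like peptide 1 receptor. Xaf1 and Pirt, both at 1.76, stood below it. With low values raised, Glp1r was 1.85-fold higher and the difference of Xaf1 vanished, while Slc11a2 and Pirt were unaltered.

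Lpar6 (Entrez 691774), which couples mainly to G12/13, had 401 with LPS and 711 with vehicle. It was lower with LPS by 1.77-fold, a log2 difference of -0.82, in the opposite direction to Lpar4. It missed the 2-fold size, and 1122 genes differed by more.

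Lpar1 (Entrez 116744), the most widely expressed EDG-type LPA receptor, had an intensity of 149 on both arrays. Lpar2 (Entrez 498609) had 41.5 on both arrays, below the floor, so these arrays give no usable difference for it. Lpar3 (Entrez 66025) had 59.6 with LPS and 75.7 with vehicle, a log2 difference of -0.35. Both values were under 236, and after raising low values no difference remained. For Lpar1, Lpar2 and Lpar3 the values are thus low on both arrays, and a change in transcript level could have gone unseen.

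Other genes of the LPA pathway were described by lists, each with its median beside that of all genes, 0. In the list of other enzymes that form LPA or its precursors, 7 of 10 reached the floor and 3 were at least 2-fold higher, against 3.69% of all genes, with none lower by that size, against 2.63%. Pla2g2a, which can release lysophospholipids outside cells, had 44095 with LPS and 44.9 with vehicle. The vehicle value was under the floor, so the fold has no usable exact size, and it was 187 once low values had been raised. Pla1a, a phosphatidylserine-specific phospholipase A1, had 3941 and 889, 4.43-fold higher. Pla2g4a, the cytosolic phospholipase A2, had 6156 and 2763, 2.23-fold higher. Lcat, which forms lysophosphatidylcholine in plasma, had 155 and 160, a log2 difference of -0.04 that vanished when low values were raised. The list median was 0, since Gdpd1, Pla2g5 and Pla2g6 were identical on both arrays.

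Enzymes that make or use LPA inside cells showed no difference of 2-fold. Of 10 acyltransferases and acylglycerol kinase genes, 9 reached the floor. None differed by 2-fold, against 3.69% of all genes higher and 2.63% lower by that size. Identical values were held by 4, against 45.9% of all genes, and the median was 0. The largest differences were -0.24 for Agpat5, -0.23 for Gpat4, 0.15 for Agpat4 and 0.10 for Agk, on the log2 scale. Agpat5 and Agpat4 are acyltransferases of the family that turns LPA into phosphatidic acid, Gpat4 makes LPA from glycerol 3-phosphate, and Agk phosphorylates monoacylglycerol to LPA.

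Among further phosphatases and related proteins, 8 of 10 reached the floor, 5 were identical, against 45.9% of all genes, and the median was 0. Plppr5, of a group of phosphatase-related proteins without the catalytic residues, had 1122 with LPS and 2842 with vehicle, a log2 difference of -1.34. It was the 1 gene at least 2-fold lower, against 2.63% of all genes, and none was higher by that size, against 3.69%. Plpp6 was 1.44-fold higher and Acp6, a phosphatase that acts on LPA, 1.23-fold higher. Plpp5 was identical at 1100. Of further known or proposed LPA receptors, Lpar5 had 104 with LPS and 120 with vehicle, a log2 difference of -0.20. Both values were under 236, and with low values raised no difference remained. P2ry10 was identical at 58.4, and Gpr35 was below the floor.

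Paralogues of autotaxin differed in both directions. Of 6 ENPP genes, 4 reached the floor, with a median of 0.62. Enpp1, which makes pyrophosphate from ATP, had 25543 with LPS and 73661 with vehicle, a log2 difference of -1.53. Enpp3, an enzyme of the same family found on basophils and mast cells, had 18178 with LPS and 7003 with vehicle, 2.60-fold higher. Enpp4 was 1.72-fold and Enpp5 1.37-fold higher, both under 2-fold. Enpp6 and Enpp7 were below the floor.

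Of the 5 sphingosine 1-phosphate receptors, relatives of Lpar1 to Lpar3, 3 reached the floor. S1pr3 had 1387 with LPS and 639 with vehicle, 2.17-fold higher, and S1pr2 was identical. S1pr1 had 192 with LPS and 289 with vehicle, a log2 difference of -0.59, or -0.29 with low values raised.

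**Figure D3:**
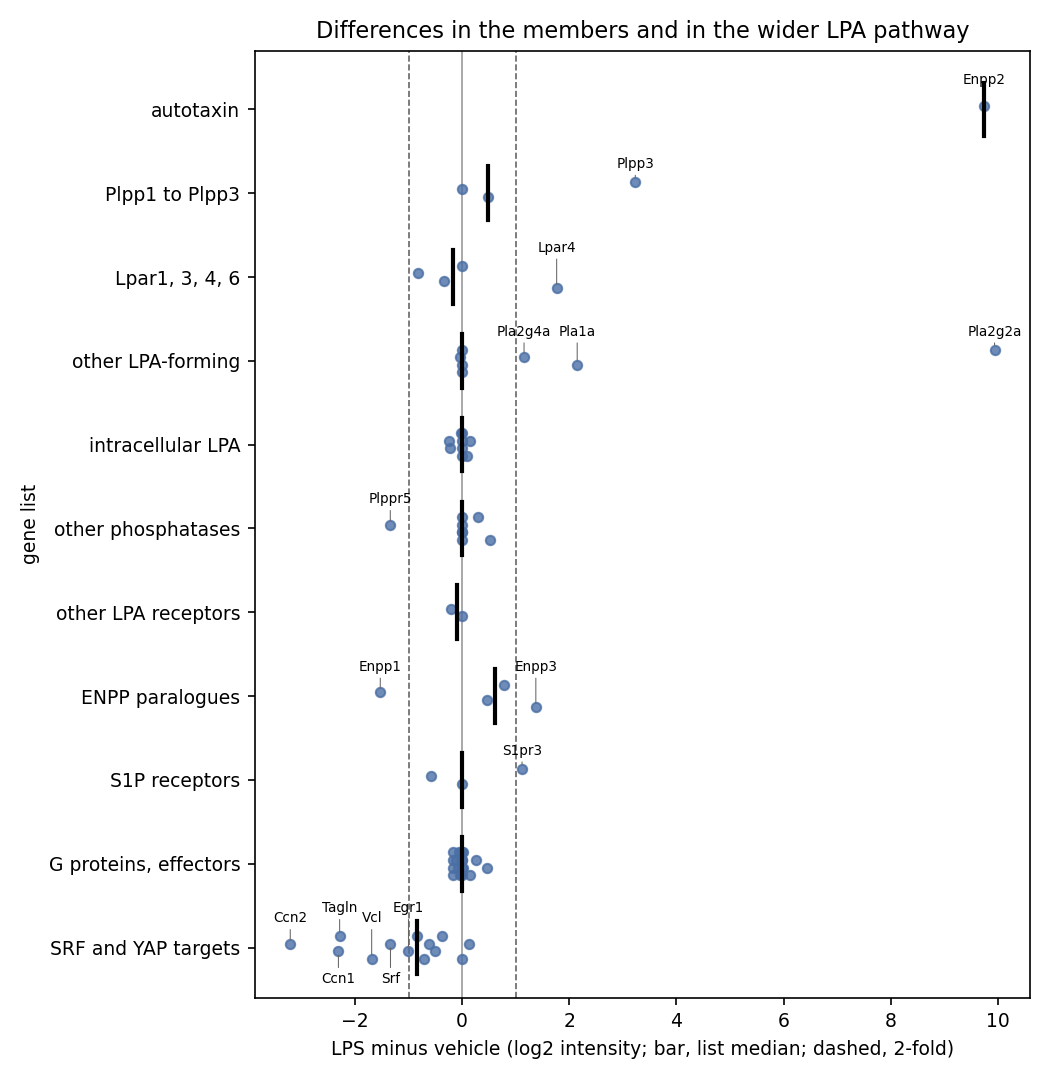
LPS minus vehicle (log2 intensity) for genes above the floor in the 3 arms of the pathway and in 8 further lists, each point a gene, bars the list medians and dashed lines 2-fold. Enpp2 and Pla2g2a lie past 9 on the axis, G protein and effector genes lie within 2-fold, and 6 SRF and YAP targets lie past 2-fold on the lower side.

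Signalling components below the receptors differed by less than 2-fold throughout the list, against 3.69% of all genes higher and 2.63% lower by that size. All 18 genes of G proteins and their effectors, phospholipase C beta included, reached the floor. Of these, 5 were higher, 8 lower and 5 identical, against 45.9% of all genes identical, and the median was 0. Gna13, the alpha subunit of G13, was 1.37-fold higher and Arhgef12, a guanine nucleotide exchange factor activated by G12/13, had a log2 difference of 0.27. Rhoa had a log2 difference of -0.18 and Plcb2 of -0.17. Plcb2 had 108 with LPS and 121 with vehicle, both under 236, and its difference vanished when low values were raised.

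A further list held genes reported to respond through the transcriptional regulators SRF and YAP. Of these, 6 of 13 were at least 2-fold lower with LPS, against 2.63% of all genes. None was higher by that size, against 3.69%. Of the 13 genes above the floor, 11 had a lower value, 1 a higher one and 1 the same value. Of all 14420 genes above the floor, 4568 were lower, 3228 higher and 6624 identical. The median log2 difference of the 13 was -0.84. The difference of Fos, at 50.2 with LPS and 71.2 with vehicle, vanished when low values were raised. Ccn2, a matricellular growth factor gene, had 851 with LPS and 7863 with vehicle, a log2 difference of -3.21. Its relative Ccn1 had 3495 and 17325, at -2.31. The smooth muscle actin-binding gene Tagln had 12438 and 60692, at -2.29, and the focal adhesion gene Vcl had 7482 and 24114, at -1.69. The other two were Srf, at -1.34, and Egr1, at 2144 with LPS and 4291 with vehicle, which is only just past 2-fold, and both were chosen for naming after their values were seen. Tagln and Cnn1 are also smooth muscle genes. Markers of smooth muscle and pericytes had a median of -0.73 over 6 genes. Of these, 2 were at least 2-fold lower, against 2.63% of all genes, and 1 higher, against 3.69%. With low values raised the counts were 1 lower and 0 higher. Whether LPA itself acted on these genes was not tested.

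Cell type markers were set beside these results, because the arrays measured whole cultures, in which more cells of a type and more RNA per cell cannot be told apart. Cardiomyocyte markers were present on both arrays, with summed intensities of 859378 with LPS and 858685 with vehicle, and none of 9 differed by 2-fold. Fibroblast markers were also present, with a median log2 difference of -0.33. Their intensities summed to 642896 with LPS and 506534 with vehicle, but without Dcn the other 8 summed to 465462 with LPS and 492694 with vehicle. Of 9, 3 were at least 2-fold higher: Dcn at 3.68, Pdgfra at 3.40 and Lum at 2.56. Another 3 were at least 2-fold lower: Col3a1 at -1.43, Tcf21 at -1.16 and Thy1 at -1.95. Of all genes above the floor, 3.69% were higher and 2.63% lower by that size, the shares to set beside each marker count. Over the 8 macrophage markers that reached the floor the median was -0.34. A 2-fold higher value was reached by 2, Adgre1 at 7.09 and Itgam at 1.31. Adgre1 had 8803 with LPS and 64.4 with vehicle, close to the floor, and stood at 5.22 with low values raised. A 2-fold lower value was reached by 3 (Csf1r at -1.76, Mrc1 at -1.80 and C1qb at -2.02), or by 2 with low values raised. All 9 markers summed to 31826 with LPS and 25918 with vehicle, but without Adgre1 to 23023 with LPS and 25854 with vehicle. Dcn and Adgre1 had the largest log2 differences of their lists. Leaving either out therefore had to lower the LPS sum relative to vehicle, so the reduced sums are no check on these cell types. Endothelial markers summed to 2479 with LPS and 1330 with vehicle, of which Kdr alone held 1975 and 715. Kdr was the 1 of 6 at least 2-fold higher, and 0 were 2-fold lower. Tek (-0.49) and Cdh5 (-0.19, and 0 with low values raised) were lower by less. Identical values were held by 3, against 45.9% of all genes. Pecam1, Cdh5, Vwf and Emcn were under 236 on both arrays.

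Smooth muscle and pericyte markers summed to 133009 with LPS and 345179 with vehicle. Acta2 alone held 110838 with LPS and 311396 with vehicle, so the sums mostly follow that gene. Of the 6 markers, 5 were lower and 1, Rgs5, was higher, beside 4568 lower and 3228 higher of all 14420 genes. Adipocytes, a known source of autotaxin in mammals, had Adipoq, Plin1, Cidec and Lep below the floor on both arrays, and the 6 markers summed to 254 with LPS and 278 with vehicle. Mesothelial markers summed to 1115 with LPS and 877 with vehicle, with none of 4 past 2-fold. The glial markers Sox10 and S100b were below the floor. Which cells carried the Enpp2, Plpp3 and Lpar4 transcripts, and what part the fibroblast and macrophage markers that moved had in these differences, was not tested.

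**Figure D4:**
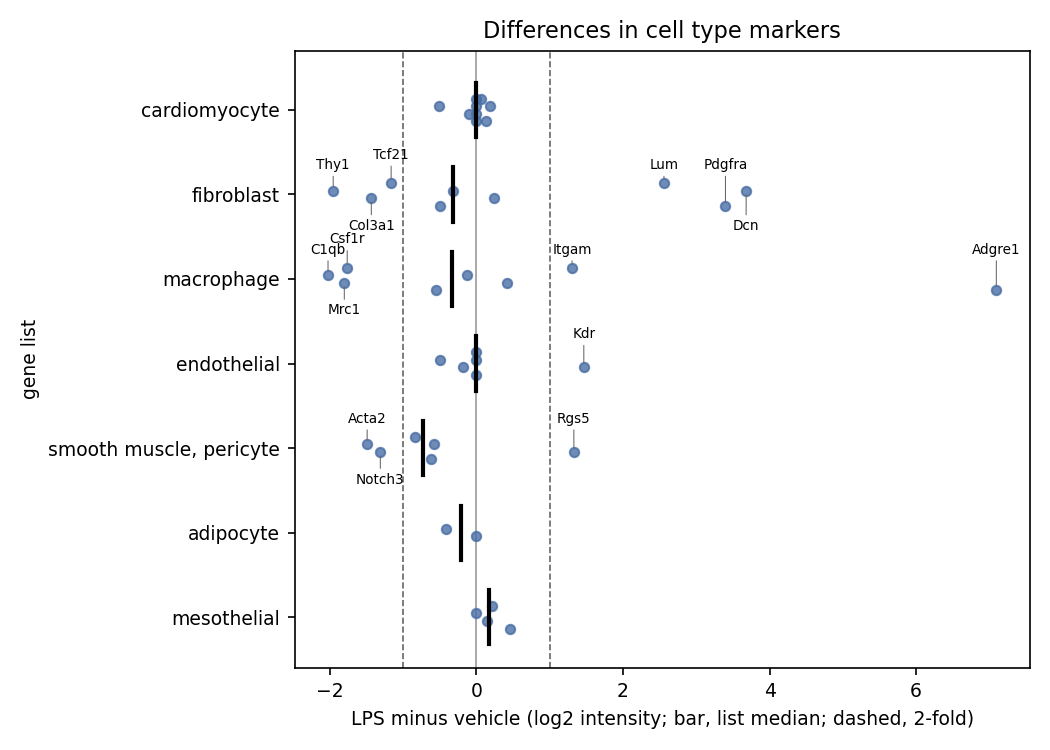
LPS minus vehicle (log2 intensity) for markers of 7 cell types, each point a gene above the floor, bars the list medians and dashed lines 2-fold. Cardiomyocyte markers stay within 2-fold, while fibroblast and macrophage markers lie on both sides.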

How the data were processed

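RNA of cultured cells was measured on 2 arrays, 1 for LPS and 1 for vehicle. The RNA was purified on columns, then amplified and labelled with biotin (GeneChip WT PLUS kit), per the labels' protocols. Per the submitters' processing notes, RMA in Affymetrix Expression Console 1.4.1 gave the deposited intensity values, which are on a linear scale. The sources used here do not give the scaling after RMA, the annotation version, the genome build or any pooling of cultures.

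Log2 was taken with no pseudocount or further normalization (Python 3.11.15, pandas 2.3.3). Of 68842 transcript clusters, 23446 had 1 symbol, 505 several and 44891 none. Symbols were updated by Entrez ID against RefSeq GRCr8, where 22077 matched and 1 changed. For 1182 genes with several clusters the one with the highest mean was used. A gene needed 1 value at or above the floor, 49.3. Counts used a fixed 2-fold size. The counting was tested on simulated data. The number of arrays limits the precision.

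Named genes were the 9 members, up to 4 genes of each pathway list with the largest absolute difference, and the 2 genes on each side of each member past 2-fold in log2 difference (predicted, receptor-cluster and small RNA genes left out). Marker genes came from fixed lists. Members and lists were chosen with earlier results of these data known. Alternatives were median centring, loess removal (span 0.3, 0 robust iterations, statsmodels 0.14.6), averaging clusters, raising low values to 236, other floors and sizes, and platform symbols as given. One averaging in older-symbol clusters was chosen after seeing the data. Leaving Dcn and Adgre1 out of the marker sums was not in the plan.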

Additional observations from a re-analysis of the deposited data

How the results depend on the processing

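Directions of Enpp2, Plpp3 and Lpar4 were kept under every alternative run, and each of them stayed at least 2-fold higher. Several alternatives could not alter these values, so their agreement carries no weight. Each gene had 1 cluster under its symbol, so averaging clusters changed nothing, and the platform symbols were the same. Raising low values could not alter Plpp3 or Lpar4, which lie above 236 on both arrays. Enpp2 moved to 7.87 on the log2 scale once values under 236 were set to 236, because that alternative replaces its vehicle value. Plpp3 was 1.82 on the log2 scale with the older-symbol cluster averaged in, an alternative chosen after seeing the data. Median centring shifted nothing. Removal of the loess trend gave 9.67 for Enpp2, 3.17 for Plpp3, 1.72 for Lpar4, 0.41 for Plpp1 and -0.87 for Lpar6, and moved the identical Plpp2 and Lpar1 to -0.03 each. Of all genes, 872 were higher and 818 lower at 1.5-fold, and 317 and 113 at 3-fold, where the size itself sets the count. At 1.5-fold the members past the size were the same 3 higher plus Lpar6 lower, and at 3-fold the same 3 higher. With the NF-κB half-site in place of the full consensus, 4 of 5 member promoters held a match instead of 0. No paired analysis was possible because each group has 1 array. Low intensities, under 236, limit Lpar1, Lpar2, Lpar3, Plpp2 and the vehicle value of Enpp2, and background was not measured.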
